A study of Homo sapiens with 15 samples.

Results

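Keratins are the intermediate filament proteins of epithelial cells, and their transcripts were followed here on 60 array probes for 54 keratin genes, out of 42405 probes that were not controls and 19483 genes that could be named. Probes were taken where the scanner files gave a RefSeq accession of a gene whose symbol is KRT, a number and at most 1 further letter, so that keratin-associated proteins were not included. The reference held 68 such symbols. The remaining 14 had no probe chosen in this way, among them the hair keratins KRT34 and KRT86 and 12 pseudogenes.

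The cells were PE/CA-PJ41, an established line from a human oral squamous cell carcinoma. CYGB+ was a stable transfectant of the pCMV6-Neo plasmid with the human cytoglobin cDNA, selected with G418. The sources differ on the control, NCE (non-cytoglobin expressing): the labels give it the vector without an insert, and the study's text calls it the un-transfected line in places. If the latter holds, transfection and selection also differ between the groups and cannot be told apart from the transgene. The CYGB+ cells were a single clone picked with a cloning ring, so that clone and transgene cannot be told apart. RNA was taken on 3 occasions from cells grown for a day before extraction, giving 3 biological replicates per group, and each was put on 3 arrays for NCE and 2 for CYGB+, which makes 15 arrays. The array repeats of a biological replicate were averaged, so that n = 3 per group in the reported fit. The alternatives with a sample or slide block used the 15 arrays without averaging. Nothing in the labels says whether the 3 extractions came from independent cultures, and the p-values of the reported fit measure only the spread between them.

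Some facts about the whole set bear on every comparison. The arrays lay on 2 slides: slide 1 held 8 NCE arrays, and slide 2 held the third array of NCE replicate 1 and all 6 CYGB+ arrays. Only that 1 NCE array separates slide from group. The difference within slide 2 compares all CYGB+ samples with that array alone. It is given beside the keratins detected on every array that it moves most. Local green background was 24 to 29 on slide 1 and 37 to 43 on slide 2. Between 48.0% and 56.8% of probes were well above background on an array. The arrays correlated with each other at medians of 0.954 to 0.988, with the first array of CYGB+ replicate 1 the lowest at 0.954 and the second array of NCE replicate 3 next at 0.975. In the check of the transfected gene, the CYGB probe read 11.85, 12.15 and 11.96 in NCE and 11.38, 12.44 and 11.97 in CYGB+ on the log2 scale, and the groups overlapped (difference -0.05, SE 0.27, limma adjusted p = 0.937). It was well above background on all 9 arrays labelled NCE. The position of this probe relative to the transfected cDNA is not given in the sources used here, so the probe does not check the labels, and every direction below rests on them.

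Keratins come in type I (acidic) and type II (basic) proteins that polymerise as obligate pairs, and the pair that a cell makes follows its kind of epithelium. Basal cells of stratified epithelia carry KRT5 with KRT14, cells that leave the basal layer turn to pairs such as KRT1 with KRT10 in skin or KRT4 with KRT13 in oral mucosa, and wounded or hyperproliferative epithelium adds KRT6, KRT16 and KRT17. Simple epithelia carry KRT8 with KRT18, with KRT7, KRT19 and KRT20 in addition in some tissues. The hair follicle has its own keratins in the shaft and in the inner root sheath. Squamous carcinomas commonly hold basal, activation-associated and simple-epithelial keratins together. All type I genes other than KRT18 lie in a cluster on chromosome 17, and the type II genes and KRT18 lie on chromosome 12.

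Sequences upstream of the annotated gene starts are shown for a member of 3 classes, the basal KRT5, the suprabasal KRT10 and the hair shaft KRT31, since the classes are compared below and all 3 probes were detected on every array. They are the 250 bases before the start in RefSeq, build GRCh38.p14, printed 5′ to 3′ along the gene, with a TATAAA match in capitals. KRT5 is at chr12:52520395-52520644, KRT10 at chr17:40822615-40822864 and KRT31 at chr17:41397609-41397858, all on the minus strand.
KRT5: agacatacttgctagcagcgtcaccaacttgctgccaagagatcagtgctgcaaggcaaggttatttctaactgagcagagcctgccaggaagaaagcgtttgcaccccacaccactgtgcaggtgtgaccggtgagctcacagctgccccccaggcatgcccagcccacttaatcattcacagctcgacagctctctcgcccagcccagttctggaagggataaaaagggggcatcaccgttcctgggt
KRT10: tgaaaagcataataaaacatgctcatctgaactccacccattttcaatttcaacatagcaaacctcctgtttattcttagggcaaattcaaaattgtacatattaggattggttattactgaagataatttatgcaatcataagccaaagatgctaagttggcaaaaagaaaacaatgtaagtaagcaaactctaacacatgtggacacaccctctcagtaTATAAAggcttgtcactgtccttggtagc
KRT31: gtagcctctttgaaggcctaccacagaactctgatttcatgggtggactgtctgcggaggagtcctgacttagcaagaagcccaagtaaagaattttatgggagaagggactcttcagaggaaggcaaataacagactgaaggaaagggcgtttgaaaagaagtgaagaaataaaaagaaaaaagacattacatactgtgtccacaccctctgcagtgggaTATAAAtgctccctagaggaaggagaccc

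Of the 54 keratin genes, 33 were in the RefSeq promoter table and 21 were not. TATAAA, the core of the TATA box, occurred on either strand in 19 of the 33 upstream windows (57.6%), against 11.1% of all 27305 windows of this length. In KRT10 and KRT31 the match began at position -29, counted from the annotated start. The match was in 16 of 27 genes that were not detected on every array and in 3 of 6 that were. Most keratin genes detected on every array, KRT14 and KRT80 among them, were not among the 33. The share thus describes mainly genes with little or no signal here. GGGCGG, the core of a GC box, was in 4 of the 33 (12.1%), against 42.3% of all windows. TGANTCA, the AP-1 element, was in 0 of the 33 against 6.60% of all, and its absence says only that these letters are not in this window.

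Which keratins gave a signal followed the classes. A probe counted as detected on an array where the scanner software marked its green signal as well above background. Of the 60 probes, 23 (21 genes) were detected on all 15 arrays, 14 on some and 23 on none. All 3 basal probes and all 5 activation-associated probes were detected on every array, as were 6 of the 7 simple-epithelial probes, where KRT20 was detected on none. In contrast, only 3 of 10 suprabasal, 3 of 17 hair shaft and 1 of 9 root sheath probes were detected on every array. The other 9 probes, for keratins outside these classes, included 2 detected on every array, for KRT80 and the pseudogene KRT42P.

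**Figure D1:**
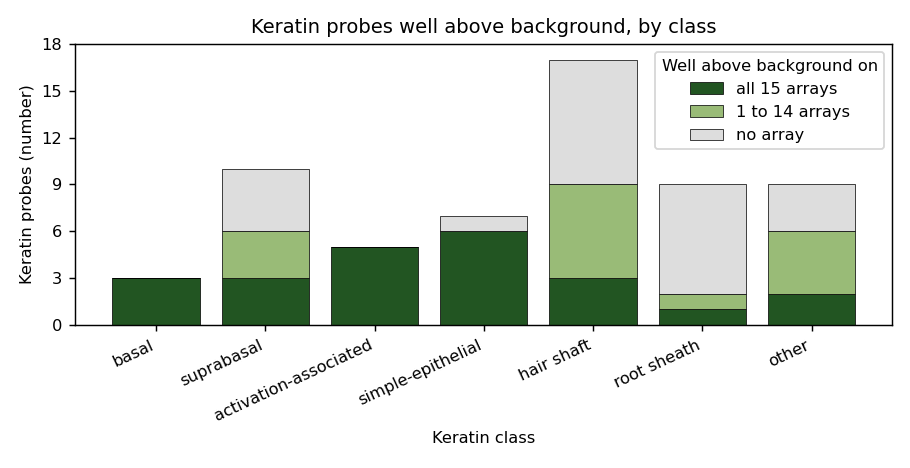
Number of keratin probes in each class (vertical axis), split by whether the scanner marked them well above background on all 15 arrays, on some or on none. Basal, activation-associated and all but 1 of the simple-epithelial probes were detected on every array, and most hair shaft and root sheath probes on few or none.

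The squamous epithelial identity of the cells was checked with 8 probes for 7 genes (CDH1, EPCAM, TP63, SFN, DSG3, ITGB4 and ITGA6), which were all detected on all arrays. Of the markers of other cell types, 4 of 7 fibroblast probes, 3 of 7 immune probes and 3 of 5 endothelial probes were detected on no array, with VWF, DCN (1 of its 2 probes), COL3A1 and CD3E among them. The monocyte marker CD14 was detected on all arrays (difference -0.46, adjusted p = 0.263), COL1A1 on 6 of each group (difference 0.10) and the endothelial cadherin CDH5 on 6 NCE and 5 CYGB+ arrays (difference 0.05). COL1A2, a fibrillar collagen chain, was detected on all arrays and was lower in CYGB+ (difference -1.32, SE 0.08, adjusted p = 0.00528). The part of other cell types in the keratin values was not tested.

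In the comparison of CYGB+ with NCE, no keratin probe passed the test. Across the array 4.79% of probes were called at an adjusted p under 0.05, 2.54% higher and 2.25% lower in CYGB+, and among the 17451 probes detected on all arrays 9.95% were called (5.18% higher and 4.77% lower). None of the 60 keratin probes was called in either direction by limma. At an unadjusted p under 0.05, 5 keratin probes were higher and 3 lower in CYGB+, which is 13.3% of keratin probes against 19.5% of all probes, and the methods' t-test gave 6 and 3. The 3 replicates of CYGB+ lay all above or all below those of NCE for 8 of the 23 detected keratin probes (34.8%), against 34.2% of all probes detected on every array. The median difference over the 60 probes was 0.01 on the log2 scale and over the 23 detected probes 0.10, beside 0.001 over all probes. The differences and intervals that follow are log2 values of CYGB+ minus NCE, and intervals are 95% intervals.

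**Figure D2:**
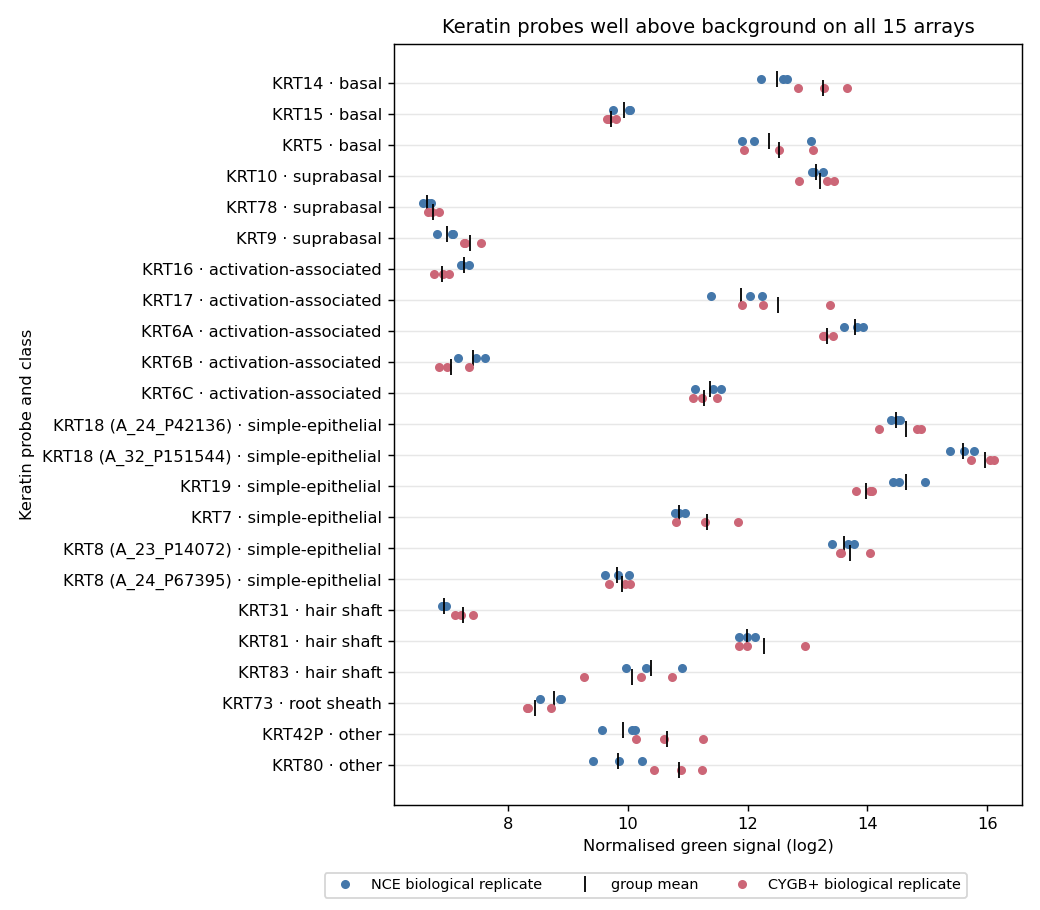
Normalised green signal (log2, horizontal axis) of the 23 keratin probes detected on all arrays, with 1 point per biological replicate (n = 3 per group) and a bar at each group mean; positions of different probes are not comparable. The groups do not overlap for KRT14, KRT9, KRT16, KRT6A, KRT19, KRT31, KRT42P and KRT80.

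Among the basal keratins, KRT14, the type I partner of KRT5, read higher in every CYGB+ replicate, while KRT5 and KRT15 did not separate the groups. KRT14 was 12.59, 12.66 and 12.22 in NCE and 13.27, 13.65 and 12.84 in CYGB+. The difference was 0.76 (SE 0.23, interval 0.20 to 1.33, adjusted p = 0.14). With the replicate number as a block, KRT14 passed the test at an adjusted p of 0.0391, in a fit that called 4.24% of all probes. No label pairs samples of the same number, and some samples of different numbers deviated together as much. Within slide 2 the difference was 0.54, and with slide as a block on the 15 arrays it was 0.55 (adjusted p = 0.589). KRT5, its type II partner, was 13.05, 12.10 and 11.91 in NCE and 12.52, 13.09 and 11.94 in CYGB+. In each group the highest replicate for KRT5 was about 1 log2 unit above the lowest, and that was replicate 1 in NCE and replicate 2 in CYGB+. CYGB+ replicate 1 read 12.02 on its first array, the one that correlated least with the others, and 13.03 on its second. CYGB+ replicate 2 read 13.03 and 13.16. The KRT5 difference of 0.17 (interval -0.83 to 1.16, adjusted p = 0.864) became -0.56 within slide 2 and -0.12 without CYGB+ replicate 2. KRT15, another type I keratin of basal cells, differed by -0.22 (SE 0.09, interval -0.45 to 0.01, adjusted p = 0.269), with overlapping groups.

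The suprabasal keratins were at background for the most part. KRT1, KRT2, KRT12 and KRT76 were detected on no array, and KRT4 on 1 array of each group. KRT13, the partner of KRT4 in oral mucosa, was detected on 6 of 9 NCE and 5 of 6 CYGB+ arrays. Its means of 6.53 and 6.52 differed by -0.01 (adjusted p = 0.969), and the difference was -0.24 within slide 2. KRT3 was detected on 8 and 5 arrays and differed by 0.08, and by 0.36 within slide 2. KRT10 was the suprabasal keratin with a clear signal on all arrays, at 13.11, 13.25 and 13.07 in NCE and 12.85, 13.44 and 13.33 in CYGB+. The groups overlapped, and the interval of the difference, 0.06, ran from -0.33 to 0.46 (adjusted p = 0.871). KRT9, a keratin of palm and sole skin, was 7.08, 7.06 and 6.81 in NCE and 7.27, 7.55 and 7.28 in CYGB+, without overlap. Its difference of 0.38 (SE 0.11, adjusted p = 0.13) was 0.17 within slide 2. KRT78 differed by 0.10 (interval -0.06 to 0.26, adjusted p = 0.49) and by -0.05 within slide 2.

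The activation-associated keratins did not move as a group. KRT16 and KRT6A, which pair in wounded epithelium, were lower in every CYGB+ replicate, and KRT17 was higher in the mean. KRT16 was 7.34, 7.21 and 7.23 in NCE and 6.76, 7.01 and 6.91 in CYGB+, a difference of -0.36 (SE 0.08, interval -0.55 to -0.18, adjusted p = 0.0593). Within slide 2 the KRT16 difference was -0.69 (adjusted p = 0.289). With slide as a block the adjusted p was 0.0303, in a fit on the 15 arrays that takes array repeats as nearly independent and called 2.03% of all probes. With the replicate block it was 0.122. KRT6A was 13.60, 13.82 and 13.93 in NCE and 13.28, 13.42 and 13.26 in CYGB+, a difference of -0.46 (SE 0.10, interval -0.70 to -0.22, adjusted p = 0.0596). For KRT6A the slide went the other way: the NCE array on slide 2 read 13.34, inside the CYGB+ range of 13.06 to 13.51, whereas all NCE arrays on slide 1 read 13.59 or more. The KRT6A difference within slide 2 was -0.02. These values do not separate slide from group for KRT6A, and the part of the slide was not tested beyond that array.

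The near-identical paralogues of KRT6A gave differences of -0.36 for KRT6B (SE 0.17, adjusted p = 0.316) and -0.10 for KRT6C (SE 0.15, adjusted p = 0.776), with overlapping groups for both and values of -0.23 and 0.08 within slide 2. The probe sequences are not given in the files used here, so how far each KRT6 probe also binds its paralogues was not tested, and the same holds for KRT14, KRT16 and KRT17 and for KRT81 and KRT83. KRT17 was 12.04, 12.24 and 11.39 in NCE and 11.91, 13.38 and 12.25 in CYGB+. Its difference of 0.63 had a wide interval, -0.43 to 1.68 (adjusted p = 0.495). A single CYGB+ array, the first of replicate 1, read 10.91 against 12.91 on the other array of that RNA. Without the 4 arrays that correlated least with the rest, an alternative chosen after seeing the data that called 10.3% of all probes, KRT17 differed by 0.91 (adjusted p = 0.0453). It differed by 0.19 without CYGB+ replicate 2, by 0.38 without NCE replicate 3 and by 0.52 within slide 2.

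**Figure D3:**
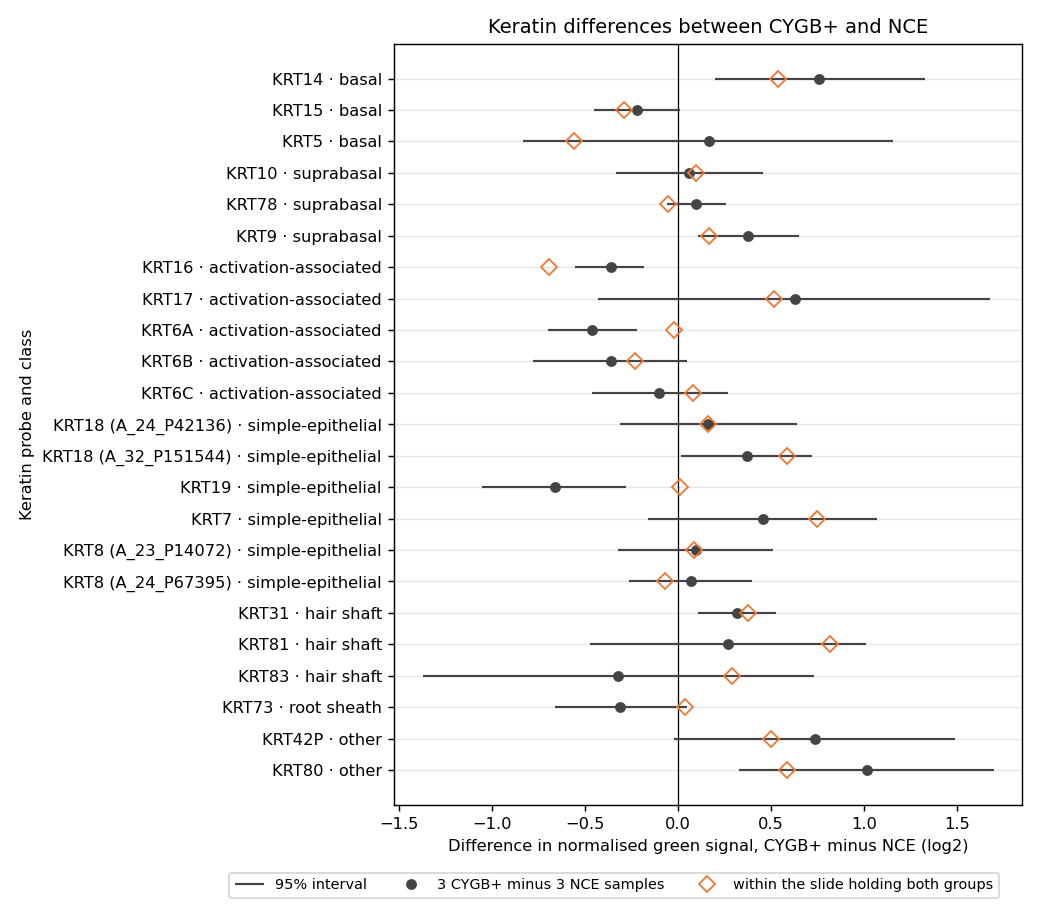
Difference in normalised green signal between CYGB+ and NCE (log2, horizontal axis) for the 23 detected keratin probes, with dots for the 3 against 3 comparison, lines for its 95% interval and open diamonds for the difference within slide 2, which has 1 NCE array. For KRT6A and KRT19 the diamond sits at -0.02 and 0.01, while for KRT16 it lies farther from 0 than the dot.

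The main simple-epithelial pair, KRT8 and KRT18, overlapped between the groups on all 4 probes. KRT8 had 2 probes, A_23_P14072 and A_24_P67395, which differed by 0.10 (interval -0.32 to 0.51, adjusted p = 0.802) and 0.07 (interval -0.26 to 0.40, adjusted p = 0.82), the second by -0.07 within slide 2. The brighter KRT18 probe, A_32_P151544, was 15.38, 15.78 and 15.61 in NCE and 15.72, 16.04 and 16.11 in CYGB+, a difference of 0.37 (SE 0.14, interval 0.02 to 0.72, adjusted p = 0.233). It was 0.59 within slide 2, and without the 4 arrays that correlated least it was 0.45 (adjusted p = 0.0456). The other KRT18 probe, A_24_P42136, differed by 0.16 (SE 0.19, interval -0.31 to 0.64, adjusted p = 0.705) and by 0.38 without CYGB+ replicate 1 (adjusted p = 0.047). Both genes have many processed pseudogenes, whose share in these signals was not tested.

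The remaining simple keratins went in different directions. KRT19, the smallest keratin and one without the usual tail domain, was 14.43, 14.53 and 14.96 in NCE and 13.81, 14.07 and 14.04 in CYGB+. The groups did not overlap and the difference was -0.66 (SE 0.15, interval -1.05 to -0.28, adjusted p = 0.0784). The NCE array on slide 2 read 13.97, within the CYGB+ range of 13.70 to 14.36, against a mean of 14.66 for the 2 slide 1 arrays of the same RNA. Unlike for KRT6A, the lowest NCE array on slide 1, from replicate 2, read 13.88 and also lay in the CYGB+ range. The KRT19 difference within slide 2 was 0.01. KRT7, a keratin of ductal and glandular epithelia, was 10.95, 10.85 and 10.78 in NCE and 11.84, 11.29 and 10.81 in CYGB+, where 1 CYGB+ replicate overlapped NCE (difference 0.46, interval -0.16 to 1.07, adjusted p = 0.397). The KRT7 difference was 0.75 within slide 2, where the array of NCE replicate 1 read 10.56 against 11.14 on slide 1, and 0.19 without CYGB+ replicate 1, whose arrays read 12.43 and 11.24.

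**Figure D4:**
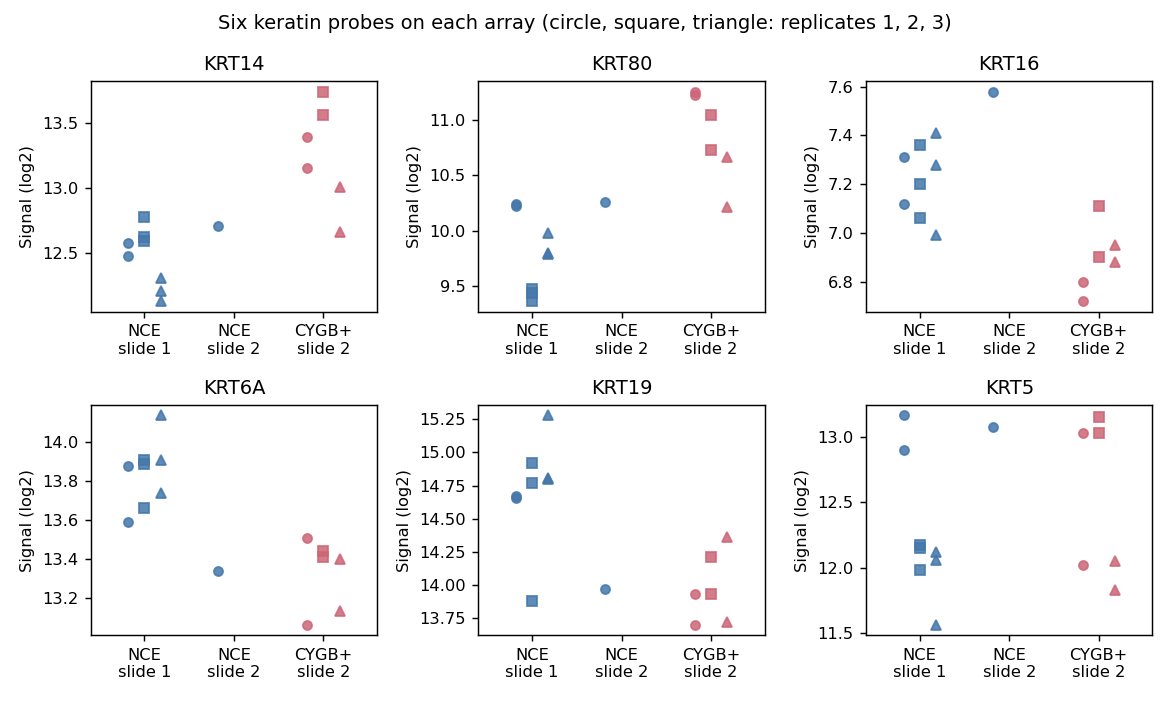
Normalised green signal (log2, vertical axis) of 6 keratin probes on each of the 15 arrays, split by group and slide, with marker shapes for biological replicates 1 to 3. The NCE array on slide 2 lies with the slide 1 NCE arrays or above them for KRT16, KRT14 and KRT80 and within the CYGB+ range for KRT6A and KRT19, and the lowest CYGB+ array reads below it for KRT14 (12.66 against 12.71) and KRT80 (10.21 against 10.26). KRT5 is high in replicate 1 of NCE on both slides.

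KRT80, which lies outside the classes and is found at desmosomes and in differentiating cells, had the largest difference of all keratin probes. It was 10.24, 9.42 and 9.86 in NCE and 11.24, 10.89 and 10.44 in CYGB+. The difference was 1.02 (SE 0.28, interval 0.33 to 1.70), a fold of 2.02, with an adjusted p of 0.114. Every replicate value of CYGB+ lay above those of NCE, while the lowest single CYGB+ array read 10.21 against 10.26 on the slide 2 NCE array. Within slide 2 the difference was 0.59, since NCE replicate 1, the one with an array on both slides, was the highest NCE replicate for KRT80 on either slide (10.23 on slide 1 and 10.26 on slide 2). The pseudogene KRT42P, a type I keratin relic, was 10.07, 10.12 and 9.57 in NCE and 10.13, 11.25 and 10.60 in CYGB+ by its brighter probe (difference 0.74, SE 0.31, adjusted p = 0.269, and 0.50 within slide 2). The lowest CYGB+ replicate lay just above the highest NCE replicate. The other KRT42P probe was detected on 5 of the 15 arrays and differed by 0.01. How far the brighter probe binds transcripts of other type I keratins was not tested, so its signal may not be that of the pseudogene.

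Hair keratins were detected here and there. KRT31, a type I keratin of the hair cortex, was 6.90, 6.92 and 6.97 in NCE and 7.11, 7.42 and 7.21 in CYGB+, a dim signal with little spread in NCE. Its difference was 0.32 (SE 0.09, interval 0.11 to 0.53, adjusted p = 0.11) and stayed at 0.38 within slide 2. KRT81, a type II hair keratin, was 11.99, 11.86 and 12.13 in NCE and 12.96, 11.99 and 11.85 in CYGB+. The high CYGB+ replicate owed its value to 1 of its arrays, which read 14.06 against 11.86 on the other, and the difference of 0.27 (interval -0.47 to 1.01, adjusted p = 0.68) became -0.08 without that replicate. Within slide 2 it was 0.82, where NCE replicate 1 read 11.44 against 12.27 on slide 1. KRT83 showed the reverse on the same array, at 7.77 against 10.76, and its difference of -0.32 (interval -1.37 to 0.73, adjusted p = 0.736) became 0.09 without the replicate and 0.29 within slide 2. The other KRT83 probe was detected on a single array. KRT85 was detected on 8 of 9 NCE arrays and all 6 CYGB+ arrays, at 6.62, 6.45 and 6.54 in NCE and 7.29, 6.68 and 6.50 in CYGB+ (difference 0.29, adjusted p = 0.516). The same array read 7.84 for KRT85 against 6.74 on its repeat, and the difference was 0.05 without that replicate. In the root sheath class KRT73 was detected on all arrays, with a difference of -0.31 (SE 0.14, adjusted p = 0.316) that was 0.04 within slide 2, and KRT75 on 4.

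The 23 keratin probes detected on no array had group means of 5.83 to 6.10 and differences of -0.07 to 0.08, and the 14 detected on some arrays differed by -0.13 to 0.29 (lowest adjusted p 0.327 and 0.348). These values are at or near the background and give no more than a bound on the level of the genes.

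The spread that limits these comparisons differed widely among members. Array repeats of the same RNA had a pooled SD of 0.08 (KRT6B) to 0.92 (KRT83) on the log2 scale, with a median of 0.30 over the 23 probes, and biological replicates a pooled SD of 0.08 (KRT78) to 0.63, with a median of 0.23. KRT14 and KRT80 each had a pooled repeat SD of 0.14 but replicate SDs of 0.33 and 0.41. KRT18, KRT19 and KRT73, among other probes, had the opposite order. Their repeat SDs were 0.41 or more (KRT18 and KRT73) and 0.39 (KRT19), and their replicate SDs 0.20 to 0.28. The repeat SD was taken over single arrays and the replicate SD over averages of array repeats. They are thus not like measures, and the replicate SD still holds part of the spread of the repeats.

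Some keratins followed each other over the 15 arrays, which share RNA and slides, so that the correlations are given as a description. KRT14 was closest to KRT9 (r = 0.92), KRT17 to KRT42P (r = 0.92), KRT10 to a KRT18 probe (r = 0.92), KRT83 to KRT73 (r = 0.88) and KRT6A to KRT19 (r = 0.80). KRT5 was not closest to its partner KRT14 but to KRT17 (r = 0.65). KRT6B and KRT6C were closest to each other (r = 0.81).

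Genes whose products bind or organise keratin filaments were read beside them. Desmoplakin (DSP), plectin (PLEC), dystonin (DST), periplakin (PPL), envoplakin (EVPL), epiplakin (EPPK1) and 4 others had 17 probes, of which 10 were detected on all arrays and none was called, with a median difference of -0.08. The DSP probes, for the protein that ties keratin to desmosomes, were higher in every CYGB+ replicate by 0.36 (SE 0.09, adjusted p = 0.082) and 0.37 (SE 0.14, adjusted p = 0.216). FAM83H, an organiser of keratin filaments, differed by 0.64 (SE 0.23, adjusted p = 0.204) and by 0.38 within slide 2. Filaggrin and trichohyalin were detected on at most 2 arrays by any probe.

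Intermediate filaments other than keratins had 20 probes, with 1 called. Vimentin (VIM), the filament protein of mesenchymal cells, was 12.33, 12.89 and 12.28 in NCE and 11.24, 11.53 and 11.88 in CYGB+. The groups did not overlap, with a difference of -0.95 (SE 0.23, adjusted p = 0.0829) that was -0.75 within slide 2. The called probe was for nestin (NES), at -0.36 (SE 0.06, adjusted p = 0.0353), and it was detected on 8 NCE arrays but on 1 CYGB+ array. Its other probe differed by -0.14 (adjusted p = 0.525). The lamins LMNA, LMNB1 and LMNB2 differed by -0.07 to -0.38, and LMNB2 passed the test with the replicate block (adjusted p = 0.0491) where NES did not (adjusted p = 0.0918). Within slide 2 the lamin probes differed by -0.12 to -0.99, with LMNB2 at -0.97. Among the epithelial markers, the integrin chains ITGA6 and ITGB4, through which basal cells anchor keratin at hemidesmosomes, read lower in every CYGB+ replicate. So did EPCAM (-0.47) and DSG3 (-0.27), while CDH1 (-0.25), TP63 (0.14) and SFN (0.15) overlapped between the groups. The median difference of the 8 marker probes was -0.37. Groups did not overlap for 34.2% of all probes detected on every array. The brighter ITGA6 probe differed by -0.57 (limma adjusted p = 0.209), the dimmer by -1.11 (adjusted p = 0.0853) and ITGB4 by -0.66 (adjusted p = 0.0665). With the replicate block the dimmer ITGA6 probe passed the test (adjusted p = 0.0416) and the brighter did not (adjusted p = 0.136). Within slide 2 the differences were -0.50 for the brighter ITGA6 probe, -0.57 for the dimmer and -0.31 for ITGB4.

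Which keratins passed depended on the processing. Over 18 alternatives, 13 of the 23 detected probes (56.5%) kept their sign in each that measured them, against 54.0% of all probes detected on every array. At least 1 alternative called 11 of the 23 (47.8%), against 33.6% of all such probes. KRT14 ranged from 0.54 to 0.97 and was called in 5, KRT80 ranged from 0.59 to 1.35 and was called in 4, and KRT16 ranged from -0.80 to -0.30 and was called in 5. KRT6A was called in 3 and ranged from -0.55 to -0.02. KRT19 was called in 2 and ranged from -0.77 to 0.01. KRT5, KRT8, KRT10, KRT6C, KRT73, KRT78, KRT81 and KRT83 turned sign in at least 1 alternative and were called in none.

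**Figure D5:**
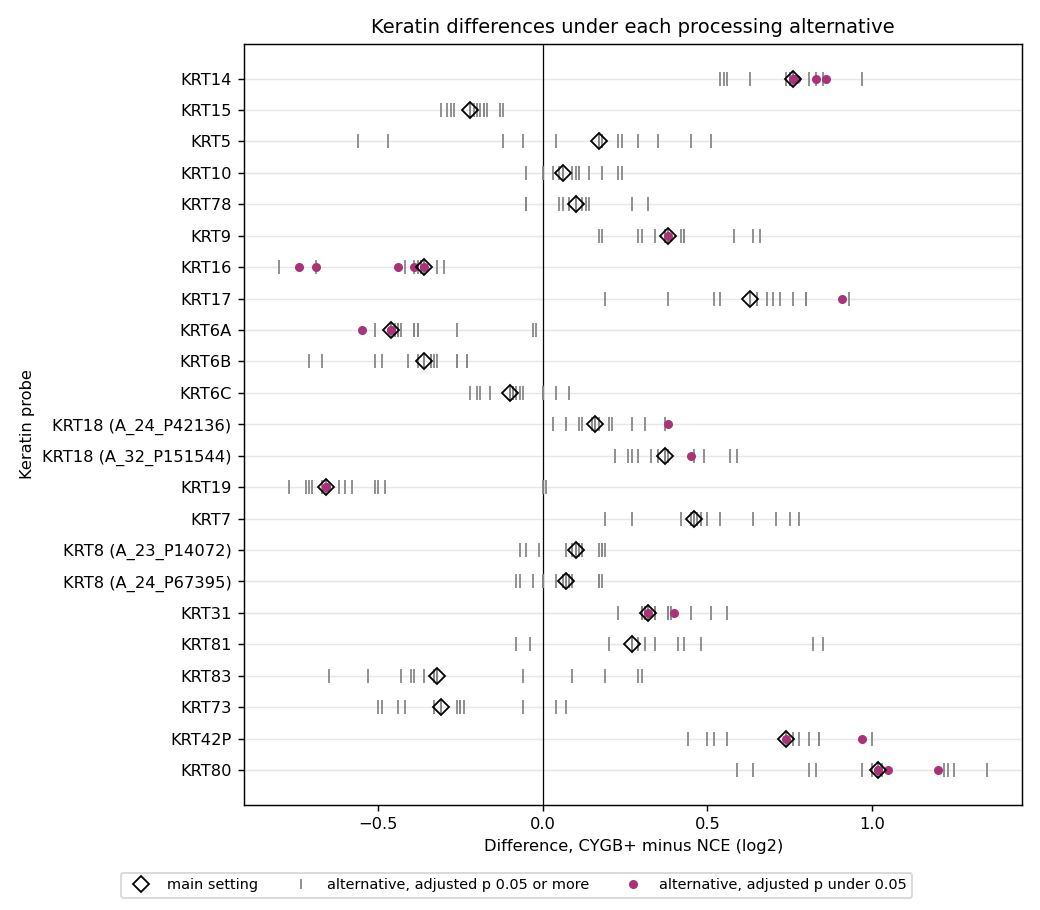
Difference between CYGB+ and NCE (log2, horizontal axis) of the 23 detected keratin probes under the reported processing (open diamonds) and under each alternative (ticks, or filled dots where the adjusted p was under 0.05). KRT14 and KRT80 lie to the right of 0 and KRT16 to the left in every alternative, and KRT5 and KRT83 fall on both sides.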

How the data were processed

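Total RNA of PE/CA-PJ41 transfectants was labelled with Cy3 per the labels (the study's methods give a second dye, and the labels were followed) and put on Agilent SurePrint G3 human arrays with an hg19 annotation. The deposited scanner files (Feature Extraction 10.7.3.1) hold raw and processed green intensities per spot. The authors quantile-normalised 1-colour data and used a t-test at a false discovery rate of 5%. The deposited value table holds values of 15031 probes on a log scale, centred on the CYGB+ median of each probe. Its slope on log2 green signal was 0.661 to 0.699 on 11 arrays, within 0.05 of the 0.693 of a natural log, and 0.476 to 0.609 on the other 4, so the deposited values were read as natural log, made by the authors from normalised signals, and divided by 0.693. This scale is inferred and not stated. The medians of its columns, in the authors' units, were -0.161 to 0.183.

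The design named mean spot signals, which the files used here do not give, so median green signals (intensity) were corrected with normexp (offset 50) against the local background median, quantile-normalised on the log2 scale, and averaged over spots of a probe and over array repeats. Control spots and outlier-flagged spots (357 to 1055 per array) were left out. Each of the 42405 probes was tested in limma 3.58.1 (R 4.3.3), two-sided, with Benjamini-Hochberg adjustment over all probes and a threshold of 0.05. Genes were named through unversioned RefSeq accessions, which matched 25422 probes. In data simulated for CYGB+ against NCE, 77% of changes of 1 log2 unit and 93% of changes of 2 were recovered among 42405 probes, with 14 false calls. Changed probes were drawn from all probes, and samples were independent values with the spread of each probe, without slides or outlying arrays. These shares therefore do not say how many changes of the detected keratins would be recovered.

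Deviations from the group mean of samples with the same replicate number correlated at 0.18, 0.19 and 0.26 over all probes. The correlations between different numbers ran from -0.42 to 0.24. The same-number correlations were thus all positive and held the highest value. Those between different numbers were -0.42, -0.41 and -0.34 for some pairs and 0.14 to 0.24 for the others. With 3 samples per group these values cannot decide whether samples are paired, and no label pairs them. The replicate block is given only as an alternative.

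Keratin classes and gene lists were chosen with earlier results of these data known. All probes of a keratin gene are accounted for, and the brightest describes it. Keratin probes detected on every array of at least 1 group are given with replicate values or a difference. Of the other gene lists, only some members are given in this way. The number of arrays limits the precision. Alternatives were 75th percentile scaling, the scanner's processed signal, the authors' value table, a filter on dim probes (detected on at least 6 arrays), all 15 arrays with the sample as a random block, slide and replicate blocks, slide 2 alone, the methods' t-test and leaving out each replicate. In the fits on 15 arrays, array repeats correlated at 0.057 with the sample block and at 0.059 with the slide block. Such fits count repeats as nearly independent. Omitting local background subtraction, and leaving out the 4 arrays with the lowest median correlation, were added after seeing the data.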

Additional observations from a re-analysis of the deposited data

Results flagged for a closer look

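Among 46 sets of array values (23 detected keratin probes in each group), 9 held a lowest or highest array that stood apart by Dixon's criterion, which chance gives in about 1 set in 20. The arrays of a replicate share RNA and are not independent. The first array of CYGB+ replicate 1 was the lowest for KRT10 (12.38), KRT18 by its dimmer probe (13.33), KRT8 by its dimmer probe (9.30), KRT83 (7.77) and KRT42P (9.29), and the highest for KRT81 (14.06). The second array of NCE replicate 3 was the lowest for KRT17 (10.60) and for both KRT8 probes (12.84 and 9.31). These were the 2 arrays with the lowest median correlation with the others.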

How the results depend on the processing

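In the reported fit 2033 probes and 0 keratin probes were called. The number of probes called was 1237 with the processed signal and quantile normalisation, 738 with the processed signal and 75th percentile scaling, 5540 with all 15 arrays and a sample block, 859 with a slide block (36.9% of them higher in CYGB+, against 53.1%), 0 within slide 2, 174 with the methods' t-test and 4378 without the 4 arrays that correlated least. Leaving out 1 replicate gave 401 to 2049, and the lowest was without NCE replicate 3. With 75th percentile scaling 1383 probes were called. The processed signal with 75th percentile scaling moved the median of all probes by -0.126.

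Keratin probes called higher numbered 3 with 75th percentile scaling (KRT14, KRT42P, KRT80), 2 in the authors' value table (KRT14, KRT80), 1 with the filter (KRT80), 4 with the sample block (KRT14, KRT9, KRT31, KRT80) and 5 without the 4 arrays (KRT14, KRT17, KRT18, KRT31, KRT42P). Those called lower numbered 1 (KRT16) with the processed signal and quantile normalisation, with a slide block, with no local background subtraction and without the 4 arrays, 2 with the filter (KRT6A, KRT19) and 3 with the sample block (KRT16, KRT6A, KRT19). Leaving out 1 replicate gave 0 to 1 in each direction, with KRT18 higher without CYGB+ replicate 1 and KRT6A lower without NCE replicate 1. With the replicate block 1 keratin (KRT14) was called higher and 0 lower. With that block, of the other genes named, the dimmer ITGA6 probe (adjusted p = 0.0416), LMNB2 and NES changed their call and no other did. Without the 4 arrays, further named genes passed the limma test that had not in the reported fit. Among them were VIM (adjusted p = 0.028), ITGB4 (adjusted p = 0.0184) and CDH1 (adjusted p = 0.0148), all lower in CYGB+. A DSP probe was called higher (adjusted p = 0.0251), and the other DSP probe was not called (adjusted p = 0.118). The cause of these changes was not tested. The filter tested fewer probes (22142). Signals near background limit the keratin probes that were not detected on every array.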
